A study of Mus musculus with 8 samples.

Results

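The respiratory chain and ATP synthase are built from subunits of 2 genomes, and their transcripts were followed here in mouse bone marrow-derived macrophages treated with dimethyl itaconate (DI). Members were taken by name from the count table: nuclear genes whose mouse symbol starts with Nduf (without the Ndufaf assembly factors), Uqcr, Cox4i, Cox5, Cox6, Cox7, Cox8 or Atp5, and the protein genes of mitochondrial DNA. The rule found 94 genes among 22165, of which 81 are nuclear and 13 are mitochondrial. The nuclear members comprise 38 of complex I, 8 of complex III, 18 of complex IV and 17 of complex V. The mitochondrial members comprise 7 of complex I, 1 of complex III, 3 of complex IV and 2 of complex V. Complex II and the complex III subunit Cyc1 fall outside the naming rule, and Ndufa4, Cox7a2l and Atp5s were grouped by prefix, although Ndufa4 is now taken as a complex IV subunit and Cox7a2l as a supercomplex factor.

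The cells came from C57BL/6 mice, either wild type or Nrf2-/-, the latter bought as a line from the Jackson Laboratory. M-CSF, a growth factor, turned marrow cells into macrophages over 7 days, and these then received no DI or 250 µM DI for 12 h, so every group shares the strain and the differentiation. Each of the 4 groups (wild type untreated, wild type DI, Nrf2-/- untreated, Nrf2-/- DI) holds 2 libraries, each made by reading the 3′ ends of polyadenylated RNA. DI is a membrane-permeable electrophilic ester of itaconate, and NRF2, the product of Nfe2l2, is the transcription factor that electrophiles release to switch on antioxidant genes.

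Complex I passes electrons from NADH to ubiquinone, complex III from ubiquinol to cytochrome c and complex IV from cytochrome c to oxygen, and complex V makes ATP from the resulting proton gradient. Mitochondrial DNA encodes core membrane subunits, transcribed as long polycistronic RNAs by a dedicated polymerase inside the organelle. Nuclear subunits are transcribed one gene at a time, and many of their promoters are known for sites of the factors NRF1, GABP (an ETS factor) and YY1. NRF1 is a different protein from NRF2. In macrophages, endogenous itaconate is known as an inhibitor of succinate dehydrogenase, complex II.

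Promoters of 3 nuclear members whose response to DI differed between genotypes are shown first, because they carry matches to these motifs. They run from 250 bases before to 50 bases after the RefSeq start (GRCm38.p6), 5′ to 3′ on the gene's strand, with the matches in capitals on whichever strand they read.
Ndufs4, chr13:114388045-114388344, minus strand: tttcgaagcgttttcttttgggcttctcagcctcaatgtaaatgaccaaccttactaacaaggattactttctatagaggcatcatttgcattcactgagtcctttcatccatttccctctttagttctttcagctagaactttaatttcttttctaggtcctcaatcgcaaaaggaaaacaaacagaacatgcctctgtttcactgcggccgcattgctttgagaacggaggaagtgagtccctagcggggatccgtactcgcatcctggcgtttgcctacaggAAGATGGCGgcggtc
Ndufa8, chr2:36049289-36049588, minus strand: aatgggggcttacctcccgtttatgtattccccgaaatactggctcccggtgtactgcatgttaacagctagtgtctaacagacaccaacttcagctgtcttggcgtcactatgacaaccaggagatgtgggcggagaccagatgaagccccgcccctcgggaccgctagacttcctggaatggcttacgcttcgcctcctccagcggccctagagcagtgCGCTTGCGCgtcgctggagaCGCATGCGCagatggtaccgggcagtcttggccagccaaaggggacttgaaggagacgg
Cox8a, chr19:7217567-7217866, minus strand: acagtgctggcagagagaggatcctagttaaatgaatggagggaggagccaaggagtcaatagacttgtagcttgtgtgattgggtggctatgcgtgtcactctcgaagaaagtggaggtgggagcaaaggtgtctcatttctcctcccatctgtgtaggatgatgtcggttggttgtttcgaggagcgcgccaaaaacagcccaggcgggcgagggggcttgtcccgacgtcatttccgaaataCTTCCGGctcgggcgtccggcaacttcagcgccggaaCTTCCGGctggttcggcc
The capitals mark a YY1 match in Ndufs4, 2 NRF1 matches in Ndufa8 (the full letters and the relaxed form) and 2 ETS matches in Cox8a. Both strands were searched for fixed letters, and 66 nuclear members had a promoter in the table. The NRF1 letters GCGCATGCG stood in 8 of them, 12.1%, against 1.95% of 27025 genes, and the relaxed form GCGCANGCG, which includes the former, in 18 or 27.3%, against 7.03%. The ETS letters CCGGAAG stood in 14 or 21.2%, against 9.93%, and the YY1 letters AAGATGGCG in 7 or 10.6%, against 1.64%. The antioxidant response element core TGACNNNGC, the kind of site NRF2 binds, stood in 9 or 13.6%, against 14.0% of all genes. Those 9 were Atp5o, Cox5b, Ndufa1, Ndufa10, Ndufa11, Ndufa7, Ndufa9, Ndufs5 and Ndufv2. None of the searched letters occurred in the windows of Cox7a2 and Cox5a.

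Total counts ranged from 5554288 to 15680671 per library. The mitochondrial members took 1.02 to 2.11% of them and the nuclear members 0.483 to 0.593%. The targeted gene Nfe2l2 stood at 230 and 454 CPM in untreated and at 299 and 416 CPM in DI-treated wild-type libraries, against 40.2 and 53.0 CPM and 67.7 and 88.1 CPM in the knockout, so all 4 knockout libraries lay below all 4 wild-type ones. CPM is a gene's counts per 1000000 counts of its TMM-scaled library. Macrophage markers summed to 4022 to 6248 CPM and all 9 were detected, neutrophil markers (S100a8, S100a9, Ngp and 4 more) to 233 to 363 CPM, and dendritic, lymphocyte, mast cell and erythroid lists to at most 5.37 CPM each, with 3 of 4 erythroid markers at 0 throughout. Stromal markers summed to 40.2 to 52.9 CPM in wild type and 14.3 to 25.7 CPM in knockout libraries, and their part in any genotype difference below was not tested. In bulk RNA, fewer cells of a type and less RNA per cell cannot be told apart. Nothing in the labels ties the paired libraries to different mice or dishes, so every p-value below reflects library-to-library spread alone, which could be technical.

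Of the 94 members, 87 passed the filter on low counts, 74 nuclear and all 13 mitochondrial. The 7 that did not were Cox7b2, Cox8b and Cox8c, each without a count, Uqcrc1 with 1 count over the 8 libraries, Cox4i2 with 3, Ndufa4l2 with 6 and Cox6b2 with 15. Most of these are subunit forms known from testis, heart, muscle or low oxygen, but Uqcrc1 encodes a core subunit of complex III present in all tissues. Its partner Uqcrc2, the other core protein, had 675 to 2558 counts per library. No other annotated gene overlaps Uqcrc1 on its strand, and why it had almost no count was not tested.

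DI raised part of the mitochondrially encoded set in wild-type macrophages. Of the 13 transcripts 5 rose (38.5%, where 6.51% of all tested genes did): mt-Co3, mt-Nd1, mt-Co2, mt-Cytb and mt-Nd3. None fell. mt-Co3, a core subunit of complex IV (ENSMUSG00000064358, chromosome M, 8607 to 9390), was at 1096 and 916 CPM in untreated libraries and at 2087 and 2356 CPM in DI libraries. It rose by 1.14 ± 0.22 on the log2 scale (fitted log2 fold change ± standard error), with edgeR adjusted p = 0.00536. mt-Co2, which carries a copper centre of complex IV, was at 1109 and 1012 CPM untreated and at 1766 and 2124 CPM with DI, a change of 0.87 ± 0.22 with edgeR adjusted p = 0.0206. For both genes the DI libraries lay above both untreated ones without overlap.

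Among the complex I transcripts of the organelle, mt-Nd1, which lines the ubiquinone channel, went from 826 and 717 CPM to 1574 and 1951 CPM. Its log2 change was 1.19 ± 0.27 with edgeR adjusted p = 0.0121. mt-Nd3, a small membrane subunit, went from 234 and 182 CPM to 394 and 534 CPM, by 1.16 ± 0.31 with edgeR adjusted p = 0.0265. mt-Cytb, the haem-bearing core of complex III, went from 364 and 353 CPM to 680 and 1007 CPM, by 1.24 ± 0.33 with edgeR adjusted p = 0.0256. These 5 genes are not neighbours as a block along the mitochondrial genome: mt-Nd2 and mt-Co1 lie between mt-Nd1 and mt-Co2, and mt-Atp8 and mt-Atp6 between mt-Co2 and mt-Co3.

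The other mitochondrial transcripts did not pass the test. mt-Co1, the catalytic subunit of complex IV, was at 4582 and 3381 CPM untreated and at 4804 and 4686 CPM with DI, a log2 difference of 0.25 ± 0.25. mt-Atp6, the proton channel of ATP synthase, was at 1877 and 2453 CPM and at 2227 and 2734 CPM, a log2 difference of 0.20 ± 0.27. For mt-Atp6 the groups overlapped. mt-Nd4 was at 1244 and 1845 CPM untreated and at 1810 and 3675 CPM with DI, with a log2 difference of 0.83 ± 0.31 and edgeR adjusted p = 0.0939. The annotated bodies of mt-Atp8, mt-Atp6 and mt-Co3 overlap on the same strand, as do those of mt-Nd4l and mt-Nd4, so the split of reads within these pairs depends on the counting and is uncertain.

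**Figure D1:**
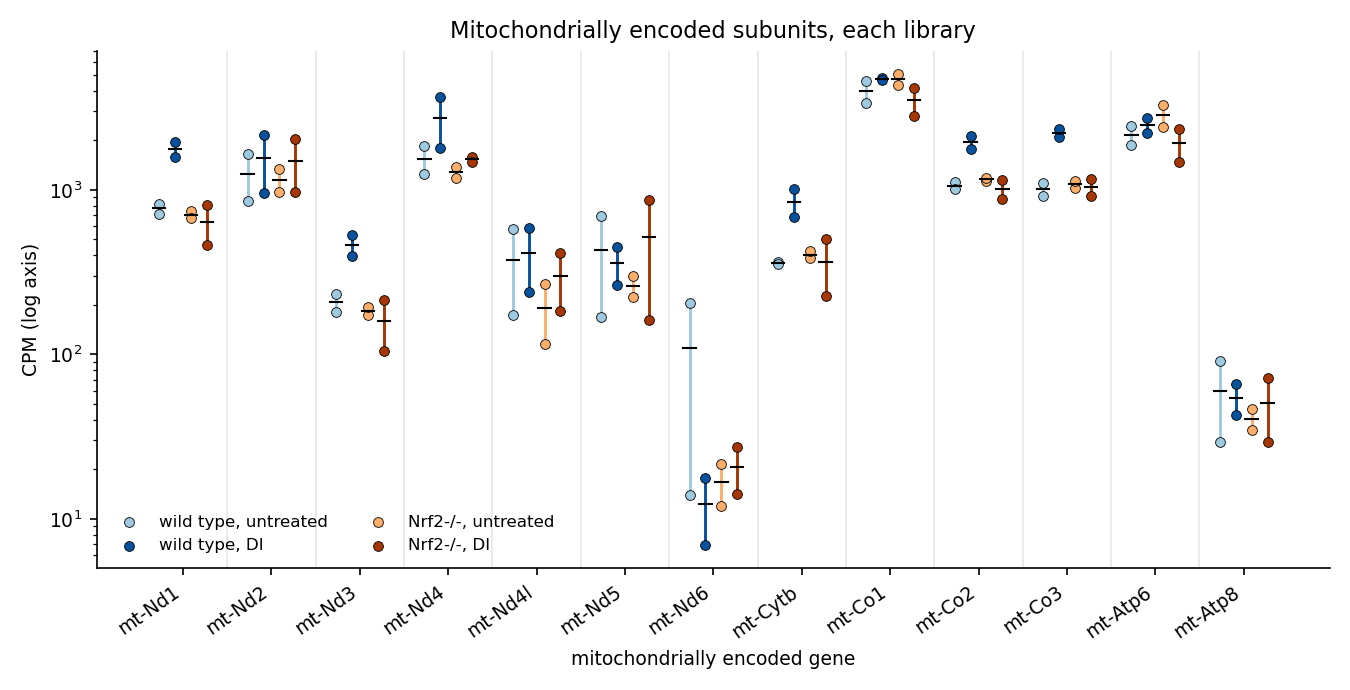
CPM of the 13 mitochondrially encoded members on a log axis, 1 point per library, with the colour giving the group, the coloured line joining the 2 libraries of a group and the black bar their mean. The wild-type DI libraries of mt-Nd1, mt-Nd3, mt-Cytb, mt-Co2 and mt-Co3 lie above all 6 other libraries, while mt-Nd6 is spread from 6.99 to 204 CPM.

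Several mitochondrial transcripts differed widely between the 2 libraries of a group. The 2 libraries of at least 1 group differed over 2-fold for 8 of the 13: mt-Nd2, mt-Nd3, mt-Nd4, mt-Nd4l, mt-Nd5, mt-Nd6, mt-Cytb and mt-Atp8. mt-Nd5, a proton-pumping subunit of complex I, was at 170 and 695 CPM in untreated wild type and at 161 and 868 CPM in DI-treated knockout libraries. mt-Nd6, the sole protein gene on the light strand, was at 204 CPM in wild-type untreated replicate 1 and at 6.99 to 27.4 CPM in the other 7 libraries. Its fitted log2 difference of -3.17 ± 1.14 in wild type (edgeR adjusted p = 0.110) therefore rests on that library.

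The calls of these 5 depended on single wild-type libraries, and leaving out any of these libraries also lowered the number of calls among all genes. Without wild-type untreated replicate 2 none of the 5 passed the edgeR test, and mt-Co3 had an edgeR adjusted p of 0.0590. Without replicate 1 of that group mt-Co3 passed and the other 4 did not, and without wild-type DI replicate 2 mt-Co3 and mt-Nd1 passed. All 5 kept their calls in the 7 alternatives that use every wild-type library with another scaling, filter, design or tool.

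Among nuclear members 1 changed with DI in wild-type cells. Ndufs4 fell, and no other of the 74 tested passed in either direction, so 1.35% of them fell, against 8.68% of all tested genes. Ndufs4 (ENSMUSG00000021764, chromosome 13, 114287795 to 114388258, minus strand) encodes an accessory subunit of the NADH-oxidising arm of complex I, added late in assembly, whose loss causes complex I deficiency. It had 158 and 128 CPM in untreated wild type and 50.6 and 48.0 CPM with DI, from 1804 and 1979 counts to 322 and 515. The log2 change was -1.54 ± 0.22 with edgeR adjusted p = 0.000688, and it stayed called in all 15 alternatives, between -1.68 and -1.31.

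The nuclear members without a call lay on both sides of 0. Over the 74 tested, the median log2 difference was 0.13, with 49 estimates above 0, against -0.02 over 11079 genes. By complex the nuclear medians were 0.10 for complex I, 0.39 for complex III, 0.39 for complex IV and -0.00057 for complex V. At an unadjusted p under 0.05, 16 nuclear members were higher and 4 lower (21.6% and 5.41%, beside 13.9% and 16.8% of all tested genes), including Cox7a2 at 0.71 ± 0.23 (edgeR adjusted p = 0.0575), Atp5d at 0.71 and Cox5a at 0.69. With DESeq2 4 nuclear members passed as higher: Atp5d, Atp5g1, Cox5a and Cox7a2. Over all genes DESeq2 called 778 as higher, where edgeR called 721. Atp5d is the delta subunit of the F1 part of ATP synthase, and Cox7a2 and Cox5a are structural subunits around the core of complex IV.

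In Nrf2-/- macrophages DI gave no called member. The edgeR test called 0 of 87 in either direction, against 4.49% of all tested genes higher and 4.0% lower. At an unadjusted p under 0.05 there were 17 lower and 1 higher (19.5% and 1.15%, beside 12.5% and 13.9% of all tested genes). DESeq2 called 1, Cox7a2, as lower, beside 551 of all genes. The estimates leaned downward: 57 of 74 nuclear members were below 0, with a median of -0.19 against 0.0046 for all genes. Macrophage markers summed to 6102 to 6248 CPM in untreated and 4022 to 4608 CPM in DI-treated knockout libraries, without overlap, and their part was not tested.

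Complex IV leaned furthest in the knockout. Its 13 tested nuclear members had a median of -0.57, and 12 were below 0. At an unadjusted p under 0.05, 7 were lower (53.8%, beside 12.5% of all tested genes): Cox7a1, Cox7a2, Cox8a, Cox7b, Cox6c, Cox6a1 and Cox5a. The medians were -0.16 for complex I, -0.11 for complex III and -0.19 for complex V. Cox7c was the member above 0, at 182 and 208 CPM untreated and 384 and 179 CPM with DI, where 1 library stood apart. The mitochondrial members had a median of -0.06, with 6 of 13 above 0, and mt-Co3 was at 1030 and 1139 CPM untreated and 917 and 1167 CPM with DI. In the fit without knockout DI replicate 2, which left 1 library in that group, the count of called members was no longer 0.

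The response itself was then compared between genotypes by the interaction, the DI effect in knockout minus that in wild type. It was positive for Ndufs4 and negative for Cox7a2, Ndufa8, mt-Co3, Cox5a and Cox8a, which is 1 of 87 higher and 5 lower (1.15% and 5.75%), beside 4.96% and 2.59% of all tested genes. Over the 87 members the median was -0.46 with 66 below 0, against 0.02 for all genes. By complex the nuclear medians were -0.28 for I, -0.50 for III, -0.93 for IV and -0.22 for V.

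Ndufs4 differed most clearly. In knockout cells it was at 99.2 and 106 CPM untreated and at 128 and 139 CPM with DI, a log2 difference of 0.37 ± 0.21 (edgeR adjusted p = 0.288), where wild-type cells had fallen. The interaction was 1.91 ± 0.30 with edgeR adjusted p = 0.00413 and kept its call in all 14 alternatives, from 1.5 to 2.06.

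Cox7a2 (ENSMUSG00000032330, chromosome 9, 79755361 to 79759878), the non-muscle form of a complex IV subunit, moved the other way. It stood at 89.2 and 81.1 CPM in untreated and 142 and 137 CPM in DI-treated wild type, and at 89.9 and 108 CPM in untreated and 50.9 and 70.4 CPM in DI-treated knockout libraries. The interaction was -1.42 ± 0.33 with edgeR adjusted p = 0.0234. Cox7a2 was named for its interaction in these same libraries. Neither genotype's own change passed the edgeR test. In each genotype the DI libraries did not overlap the untreated ones, which with 2 libraries a group adds no support. The same layout held for Ndufa8, an accessory complex I subunit facing the intermembrane space (ENSMUSG00000026895, chromosome 2), with 36.7 and 35.5 CPM untreated and 53.7 and 57.4 CPM with DI in wild type, then 39.0 and 45.0 CPM and 28.4 and 30.6 CPM in the knockout. Its interaction was -1.14 ± 0.30 with edgeR adjusted p = 0.0385.

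Cox5a, a matrix-side subunit of complex IV, had an interaction of -1.26 ± 0.34 (edgeR adjusted p = 0.0429) and Cox8a, a small transmembrane subunit, -1.22 ± 0.34 (edgeR adjusted p = 0.0473). Cox5a was at 198 and 168 CPM in wild-type DI and at 89.4 and 88.0 CPM in knockout DI libraries, and Cox8a at 137 and 138 CPM against 56.8 and 85.9 CPM. For mt-Co3 the interaction was -1.20 ± 0.32 with edgeR adjusted p = 0.0385. Of the other mitochondrial risers, mt-Nd1 (-1.34, edgeR adjusted p = 0.0522), mt-Co2 (-1.06, 0.0589), mt-Nd3 (-1.37, 0.0750) and mt-Cytb (-1.38, 0.0872) lay just outside the threshold.

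**Figure D2:**
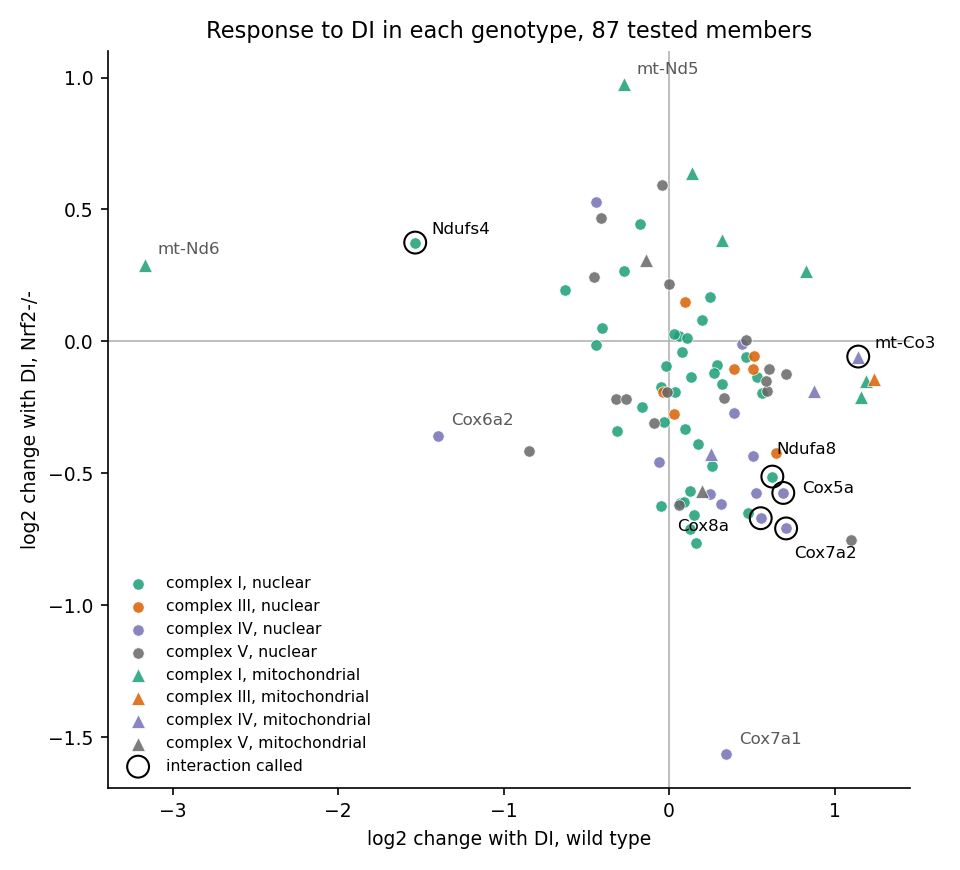
Log2 change with DI in wild type (x axis) against that in Nrf2-/- cells (y axis) for the 87 tested members, with colour for the complex, triangles for mitochondrial genes and rings for the 6 members with a called interaction. Cox7a2, Cox5a, Cox8a and Ndufa8 lie right of and below the origin, and Ndufs4 lies left of and above it at -1.54 and 0.37.

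**Figure D3:**
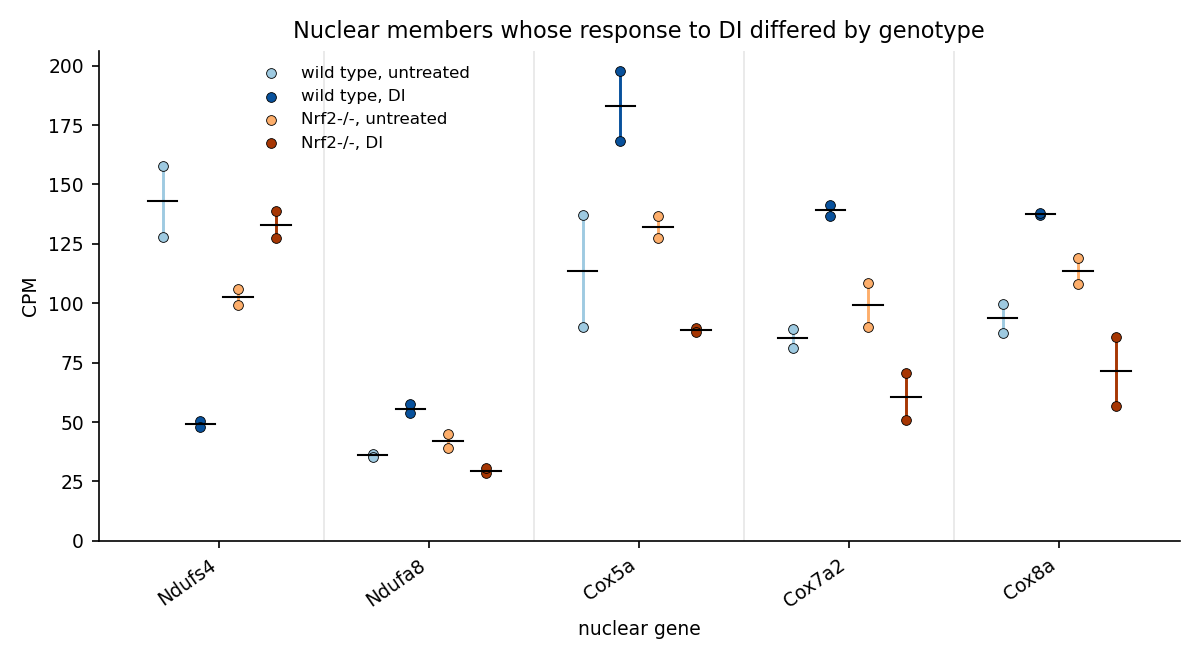
CPM of the 5 nuclear members with a called interaction, 1 point per library, the coloured line joining the 2 libraries of a group and the black bar their mean. Ndufs4 is lowest in wild-type DI libraries, at 50.6 and 48.0 CPM, while the other 4 genes are highest there and lowest in knockout DI libraries.

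The calls of the 5 negative interactions depended on single libraries. Leaving out most single libraries also lowered the number of negative interactions called among all genes. None of them was called without wild-type untreated replicate 2, without knockout untreated replicate 1 or 2, or without knockout DI replicate 1. Of the 5, 2 were called without wild-type untreated replicate 1 or without wild-type DI replicate 2, 1 without wild-type DI replicate 1 and 3 without knockout DI replicate 2. DESeq2 called 13 members as lower, the same 5 among them. It also called more of all genes lower, 426 where edgeR called 287.

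In untreated cells no member was called between the genotypes. The edgeR test called 0 of 87 members, beside 0.0812% of all tested genes higher and 0.524% lower in knockout. DESeq2 called 0 members, beside 36 of all genes higher and 155 lower. At an unadjusted p under 0.05 there were 3, all lower in knockout, which is 3.45% beside 7.30% of all tested genes: mt-Nd6 at -2.68, Ndufa12 at -0.68 and Ndufs4 at -0.48. Ndufa12, an accessory subunit beside Ndufs4 in the complex I arm, was at 111 and 116 CPM in wild type and 56.9 and 85.2 CPM in knockout. The members' median was 0.02, with 45 of 87 above 0. Without wild-type untreated replicate 2, 1 member was called lower.

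Under DI the genotypes differed. In knockout DI against wild-type DI cells 21 members were lower and 1 was higher, that is 24.1% and 1.15% of 87, where 9.74% of all tested genes were lower and 11.4% higher. The lower ones comprised 16 of 74 nuclear and 5 of 13 mitochondrial members. This comparison uses the same DI libraries as the interaction, and it was not independent of it. Macrophage markers summed to 4677 to 5083 CPM in wild-type DI and 4022 to 4608 CPM in knockout DI libraries, and their part was not tested.

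Among the nuclear sets complex IV held the largest share called lower, 53.8% beside 9.74% of all tested genes. Of its 13 tested nuclear members 7 were lower: Cox7a2 (-1.20 ± 0.23, edgeR adjusted p = 0.00407), Cox5a (-1.05), Cox8a (-0.94), Cox6c (-0.88), Cox6a1 (-0.80), Cox6b1 (-0.76) and Cox7b (-0.74). These are the ubiquitous forms that wrap the catalytic core. Cox6b1, on the intermembrane face, was at 155 and 166 CPM in wild-type DI and 89.0 and 100.2 CPM in knockout DI libraries. Cox4i1, the largest nuclear subunit, was at 159 and 164 CPM and at 112 and 125 CPM, a log2 difference of -0.44 that did not pass. Of the core subunits from mitochondrial DNA, mt-Co3 (-1.09) and mt-Co2 (-0.93) were lower, and mt-Co1 at -0.44 ± 0.25 did not pass.

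In complex III, 2 of 7 nuclear members were lower (28.6%, beside 9.74% of all tested genes). Uqcrc2, the core protein, was at 185 and 238 CPM in wild-type DI and 78.9 and 111 CPM in knockout DI libraries, and its log2 estimate was -1.15 ± 0.25 (edgeR adjusted p = 0.00806). Uqcr11, a small subunit, changed by -0.66 with edgeR adjusted p = 0.0479. The Rieske iron-sulfur protein Uqcrfs1 was at 32.2 and 37.7 CPM and at 29.99 and 28.8 CPM, a log2 difference of -0.25. mt-Cytb was also lower, at 226 and 504 CPM against 680 and 1007 CPM, and its log2 estimate was -1.21 ± 0.33 (edgeR adjusted p = 0.0228).

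In complex I, 3 of 37 nuclear members were lower, and this 8.11% was no larger a share than the 9.74% of all tested genes. The 3 were accessory subunits: Ndufa8 (-0.91), Ndufb3 (-0.95) and Ndufb11 (-0.78). Of the 7 nuclear subunits of the catalytic core, which hold the flavin and iron-sulfur centres or the quinone site, none passed, with log2 differences from -0.40 in Ndufs3 to 0.17 in Ndufv2. Ndufs4 was the member higher in knockout, by 1.43 ± 0.22 with edgeR adjusted p = 0.000882. Of the organelle's complex I transcripts mt-Nd1 (-1.47 ± 0.27) and mt-Nd3 (-1.54 ± 0.32) were lower, with edgeR adjusted p = 0.00312 and 0.00531.

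In complex V, 4 of 17 nuclear members were lower (23.5%, beside 9.74% of all tested genes). They were Atp5g3 and Atp5g1, which encode the same c-ring protein, and Atp5j2 and Atp5mpl, small subunits of the membrane part. Atp5g3 was at 138 and 142 CPM in wild-type DI and 74.4 and 78.7 CPM in knockout DI libraries, an estimate of -0.87 ± 0.21 with edgeR adjusted p = 0.0135. The catalytic F1 subunits Atp5a1 and Atp5b had log2 differences of -0.13 and -0.22 and did not pass. Neither mt-Atp6 (-0.37) nor mt-Atp8 (-0.12) passed.

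**Figure D4:**
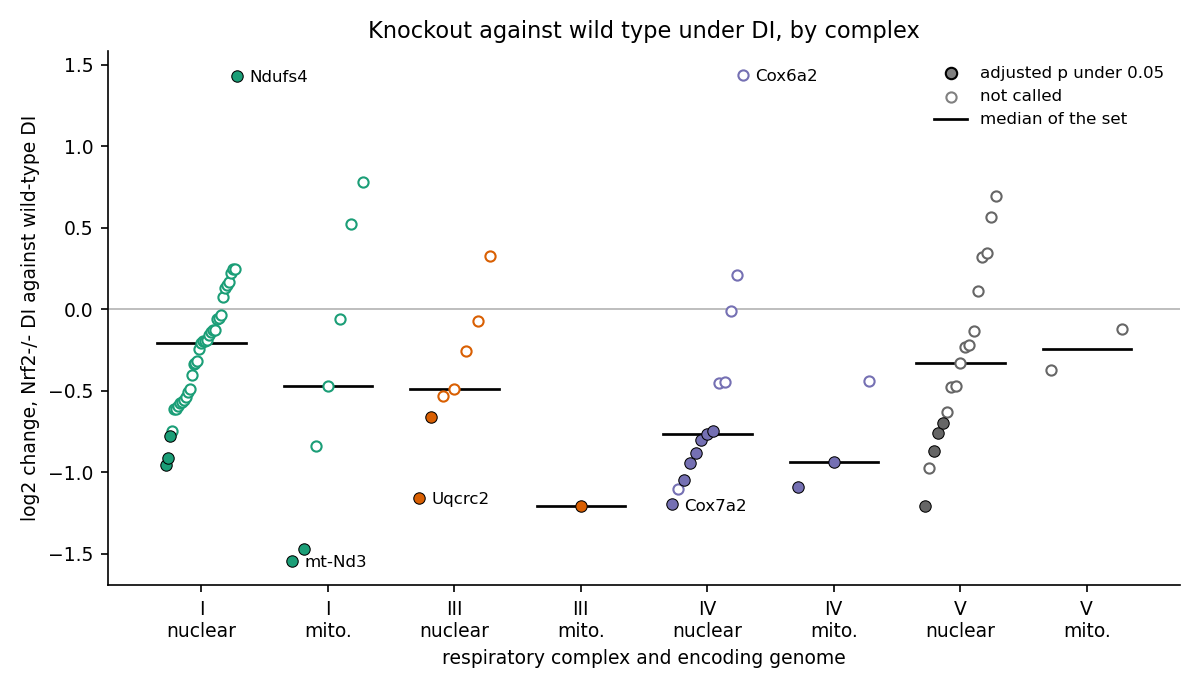
Log2 change of knockout DI against wild-type DI cells for each tested member, grouped by complex and encoding genome, with filled points called at edgeR adjusted p under 0.05 and the black bar at the median of the set. The nuclear medians are -0.21, -0.49, -0.76 and -0.33 for complexes I, III, IV and V, and Ndufs4 stands at 1.43.

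The number of lower members, like that of all genes called lower, depended on knockout DI replicate 1. Without it 3 members were lower (Cox7a2, mt-Nd1 and mt-Nd3), and without wild-type DI replicate 2 there were 11. Cox7a2, Ndufs4, mt-Nd1 and mt-Nd3 kept their calls in all 15 alternatives. With an offset for A-rich sequence 11 of the 16 nuclear members lost theirs: Atp5g1, Atp5g3, Atp5j2, Cox6a1, Cox6b1, Cox6c, Cox7b, Cox8a, Ndufb3, Ndufb11 and Uqcr11. Scaling by total counts alone left 14 members lower, 9 of them nuclear. Over all genes 872 were lower with the offset and 850 with total counts alone, where the main fit had 1079.

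Summed over members, the 2 genomes gave different patterns. The mitochondrial members summed to 12761 and 13894 CPM in untreated and 16869 and 22340 CPM in DI-treated wild type, and to 13804 and 14237 CPM and 10096 and 15026 CPM in the knockout. The nuclear members summed to 5408 and 5734 CPM and 5910 and 6292 CPM in wild type, and to 5371 and 5436 CPM and 4802 and 4888 CPM in the knockout. With TMM scaling the nuclear sum was thus highest in wild-type DI and lowest in knockout DI libraries, with no overlap of either pair with any other library. As a share of total counts, the wild-type DI pair (0.558 and 0.593%) overlapped the untreated libraries (0.552 to 0.570%). The knockout DI pair (0.483 and 0.501%) stayed lowest. The mitochondrial sum was highest in wild-type DI libraries, and the knockout DI pair lay on either side of all 4 untreated ones.

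The ratio of mitochondrial to nuclear counts, which does not depend on library scaling, was 2.36 and 2.42 in untreated and 2.85 and 3.55 in DI-treated wild type. It was 2.57 and 2.62 in untreated and 2.10 and 3.07 in DI-treated knockout libraries. Counts were not divided by transcript length, so only its change between groups can be read. On the log2 scale the mean ratio was 0.41 higher with DI in wild type, with SDs of 0.03 and 0.22 (n = 2 each), and differed by -0.03 in the knockout, with SDs of 0.02 and 0.39. Without wild-type DI replicate 2 the wild-type difference was 0.26, and that of the mitochondrial sum was 0.34 instead of 0.54. The knockout difference was below the spread of its DI libraries, at 0.24 without DI replicate 1 and -0.30 without DI replicate 2.

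By complex, the nuclear sum of complex IV was 1216 and 1424 CPM in untreated and 1590 and 1613 CPM in DI-treated wild type, then 1304 and 1345 CPM and 1113 and 1037 CPM in the knockout. Its log2 ratio of means was 0.28 with DI in wild type and -0.30 in knockout. The nuclear sum of complex I was 2242 and 2304 CPM, 2241 and 2332 CPM, 2192 and 2228 CPM, and 1975 and 2092 CPM in the same order of groups. The complex V sum was 1456 and 1464 CPM, 1461 and 1662 CPM, 1362 and 1312 CPM, and 1275 and 1248 CPM. Scaling by total counts alone put the median of all genes at -0.104 for DI in wild type and at 0.121 for knockout DI against wild-type DI, and the nuclear sum then changed by 0.04 instead of 0.13 and by -0.23 instead of -0.33.

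The libraries were primed with a run of T, and a measured property of the coding sequence, the highest number of A in 15 consecutive coding bases, moved with the comparisons. Across all tested genes the median change of knockout DI against wild-type DI cells went from -0.31 at up to 7 A to 0.43 at 12 or more, and that of DI in wild type from 0.18 to -0.28. Nuclear members had a median of 9 A. The 13 tested nuclear members of complex IV had 7 to 9 A, while nuclear complex I members reached 12. All-gene medians for DI in the knockout were -0.26 at up to 7 A, -0.17 at 8 A and -0.11 at 9 A. How far this shaped the place of complex IV among the complexes was not tested. Windows of 4 members are shown because their counts run from 7 to 11 A, 5′ to 3′ on the coding strand (GENCODE M21, GRCm38), with the richest 15 bases in capitals and up to 15 bases on each side.
Ndufs4, coding bases 273 to 287, 11 A: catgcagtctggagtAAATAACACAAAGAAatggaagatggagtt
Cox8a, coding bases 186 to 200, 7 A: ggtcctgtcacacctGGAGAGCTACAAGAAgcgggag
mt-Co3, coding bases 456 to 470, 9 A: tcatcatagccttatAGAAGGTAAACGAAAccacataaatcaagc
mt-Nd3, coding bases 313 to 327, 10 A: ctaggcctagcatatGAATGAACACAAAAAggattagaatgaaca
The nuclear members' medians for knockout DI against wild-type DI were -0.59 at 7 A (n = 12), -0.47 at 8 A (n = 18), -0.33 at 9 A (n = 23) and -0.17 at 10 A (n = 14). The classes of all genes had -0.31 at 7 A or fewer, then -0.28, -0.21 and 0.02. The 3 nuclear members at 6 A had a median of -0.34. The 7 mitochondrial members at 10 A had a median of -0.93, against 0.02 for all genes of that class.

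With an offset that removes this trend from each library, all 6 called interactions became smaller and 5 of them lost their call. The values were 1.5 for Ndufs4 (edgeR adjusted p = 0.0206), which was still called, and -1.18 for Cox7a2 (0.0511), -0.96 for mt-Co3 (0.0792), -0.91 for Cox5a (0.123), -0.89 for Ndufa8 (0.0927) and -0.83 for Cox8a (0.147). Over all genes the interaction calls went from 549 higher and 287 lower to 371 and 242. In knockout DI against wild-type DI cells 7 nuclear and 6 mitochondrial members were then lower, and 3 were higher: Atp5h, Cox6a2 and Ndufs4. Of 11079 genes 872 were lower and 994 higher with the offset, where the main fit had 1079 and 1266. Of the 16 nuclear members lower without the offset 5 were still called, Atp5mpl, Cox5a, Cox7a2, Ndufa8 and Uqcrc2. The other 11 had log2 differences from -0.89 in Atp5g1 to -0.34 in Uqcr11, and Atp5s and Ndufs6 were called in addition. The mitochondrial rises with DI in wild type were 6, the original 5 and mt-Nd4, while over all genes 687 rose, where the main fit had 721. How much priming inside transcripts contributes to any member's change was not tested.

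**Figure D5:**
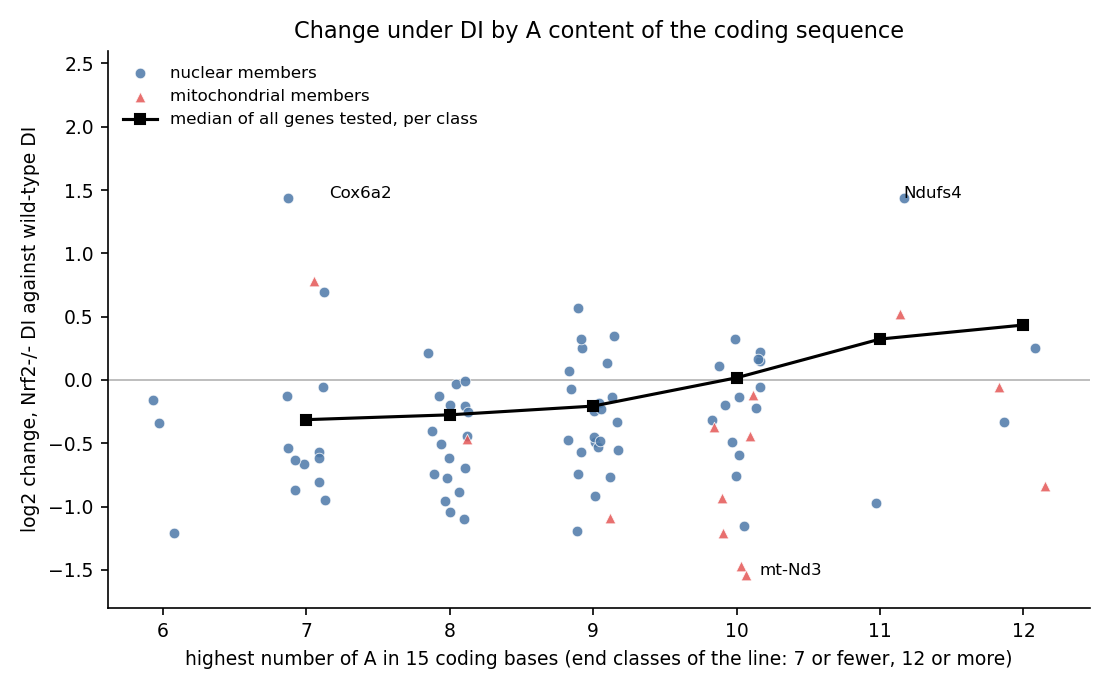
Log2 change of knockout DI against wild-type DI cells for each tested member against the highest number of A in 15 coding bases (points moved sideways at random to separate them), with squares for the median of all tested genes per class. The line climbs from -0.31 to 0.43, while most mitochondrial members at 10 A lie below it and Ndufs4 at 11 A lies above it.

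Where a subunit has alternative forms, the libraries held the widely expressed form. Cox4i1 stood at 112 to 164 CPM, while Cox4i2, the form known from lung and low oxygen, had 3 counts in all. Cox6a1 stood at 80.9 to 180 CPM and the heart and muscle form Cox6a2 at 1.02 to 5.75 CPM. Cox6a2 was at 2.45 and 4.14 CPM in untreated and 1.57 and 1.02 CPM in DI-treated wild type, a log2 difference of -1.40 with edgeR adjusted p = 0.0814. Cox7a1, the muscle form beside Cox7a2, stood at 0.43 to 2.93 CPM, and the muscle marker list summed to at most 1.82 CPM. Cox8a was detected while Cox8b and Cox8c had no count. Ndufa4 stood at 179 to 307 CPM and Ndufa4l2, a form known to rise in low oxygen, had 6 counts in all.

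The c-ring genes of ATP synthase share a mature protein, and their responses were not tested against each other. Atp5g1 was at 5.50 and 7.38 CPM in untreated and 13.5 and 14.2 CPM in DI-treated wild type, and at 6.47 and 13.4 CPM and 4.16 and 7.80 CPM in the knockout. Its log2 difference was 1.10 with DI in wild type (edgeR adjusted p = 0.0634) and -1.21 in knockout DI against wild-type DI cells (edgeR adjusted p = 0.0402). Atp5g3 was at 102 and 83.3 CPM in untreated and 138 and 142 CPM in DI-treated wild type, a log2 difference of 0.59 (edgeR adjusted p = 0.0775), and was lower in knockout DI cells as given above. Atp5g2 stood at 0.65 to 1.63 CPM with no called change. Pseudogenes named after Atp5c1, Atp5k, Atp5l, Ndufab1 and Uqcrh are annotated, and how the counting shared reads with them is uncertain.

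Genes that build or serve the chain were listed separately, with members counted in the same fit. Of 49 tested assembly factors 3 fell with DI in wild type, Ndufaf2, Tmem126b and Cox20, and none rose (6.12% fell, beside 8.68% of all tested genes). In the knockout 2 rose, Ndufaf2 and Cox17, and 4 fell, Ndufaf3, Surf1, Sdhaf4 and Cox18 (4.08% and 8.16%, beside 4.49% and 4.0%). Ndufaf2, which binds complex I late in assembly of the arm that holds Ndufs4, was at 16.3 and 28.9 CPM in untreated and 9.27 and 9.60 CPM in DI-treated wild type, and at 10.3 and 13.1 CPM and 28.2 and 39.0 CPM in the knockout. It fell by 1.26 ± 0.31 in wild type (edgeR adjusted p = 0.0159) and rose by 1.51 ± 0.30 in knockout (edgeR adjusted p = 0.0135), with an interaction of 2.77 ± 0.43 (edgeR adjusted p = 0.00346).

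The interaction was called higher for 2 of the 49 tested assembly factors and lower for 1, 4.08% and 2.04%. These shares were no larger than the 4.96% and 2.59% of all tested genes. Cox20, a chaperone of mt-Co2 protein, fell by 0.88 in wild type with an interaction of 1.13 (edgeR adjusted p = 0.0428). Tmem126b, of the complex I assembly machinery, fell by 0.94 in wild type. Ndufaf3, an early complex I factor, fell by 1.21 in the knockout, and its interaction was -1.33 (edgeR adjusted p = 0.0489). Surf1, needed for complex IV assembly, fell by 1.08 and Sdhaf4, a complex II factor, by 1.14 in the knockout, where the copper chaperone Cox17 rose by 1.31 with 1 DI library at 28.3 and the other at 12.97 CPM.

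Of 19 tested genes of mitochondrial gene expression 1 rose and 1 fell with DI in wild type, 5.26% each way, beside 6.51% and 8.68% of all tested genes. Tfam, which packages mitochondrial DNA and starts its transcription, fell from 69.6 and 42.4 CPM to 21.2 and 20.7 CPM, an estimate of -1.42 ± 0.31 (edgeR adjusted p = 0.00994). Tfb2m, the partner of the mitochondrial RNA polymerase, rose from 11.2 and 14.8 CPM to 25.9 and 45.4 CPM, by 1.46 ± 0.28 with edgeR adjusted p = 0.00499. In the knockout Tfam was at 35.3 and 33.0 CPM untreated and 53.3 and 29.3 CPM with DI and was not called. Its interaction was 1.69 ± 0.44 (edgeR adjusted p = 0.0364), the 1 higher call among the 19 (5.26%, beside 4.96% of all tested genes). These genes and the mitochondrial transcripts moved in the same libraries, and no link between them was tested.

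Of 76 tested mitochondrial ribosomal proteins 3 rose with DI in wild type (Mrpl20 at 1.0, Mrpl12 at 0.91 and Mrps18b at 0.79) and none fell, so 3.95% rose, beside 6.51% of all tested genes. In the knockout 2 rose, Mrps6 at 1.33 and Mrps33 at 0.82, and 2 fell, Mrpl22 at -1.15 and Mrps24 at -0.79, which is 2.63% each way, beside 4.49% and 4.0%. Of 4 complex II genes none was called with DI. Sdhd, its membrane anchor, was lower in knockout DI than wild-type DI cells, with a log2 change of -1.36 ± 0.36 (edgeR adjusted p = 0.0204). That is 1 of 4, beside 9.74% of all tested genes. In that comparison 1 of 13 electron carriers was lower (7.69%). Of the mitochondrial ribosomal proteins 8 were lower and 4 higher (10.5% and 5.26%, beside 9.74% and 11.4%). Of 13 electron carrier genes and 8 regulators of respiratory genes, which include Nrf1, Gabpa and Yy1, none was called with DI in either genotype. Of all tested genes 6.51% rose and 8.68% fell with DI in wild type, and 4.49% and 4.0% in the knockout. Lists of 4, 13 and 8 genes are too short to set a count of 0 apart from these shares. The mitochondrial ribosomal RNAs were not analysed here.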

How the data were processed

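RNA from 8 macrophage libraries, 2 in each of 4 groups, was measured as 3′-end poly(A) counts. The deposited values are raw counts per gene, which the authors made with STAR and HTSeq on mm10, per the submitters' processing notes, which also name DESeq2. Versions and the annotation release are not given in the sources used here. Per the labels' protocols, RNA was primed with oligo-dT, barcoded, pooled after first-strand synthesis by Actb level and amplified by PCR without molecular identifiers, so reads are not independent molecules.

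Gene identifiers were matched to GENCODE M21 names (21745 of 22165 genes). Genes with enough counts for edgeR's filterByExpr at a minimum count of 10 were kept (11079). TMM-scaled counts entered edgeR 4.0.16 (R 4.3.3; robust quasi-likelihood F-test, 1 mean per group, all 8 libraries), with Benjamini-Hochberg adjusted p under 0.05 as a call. CPM, sums and ratios were computed from the deposited counts in Python 3.11.15. The procedure was tested on simulated data. Alternatives were DESeq2 1.42.0, RLE factors, total counts only, no filter, the compared groups alone, a replicate block, an offset for the highest number of A in 15 coding bases (known for 10999 tested genes) and each library left out.

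The members and lists were chosen with earlier results of these data known. Named were all mitochondrial members, up to 8 called nuclear members per comparison and direction with the smallest p, pairs of alternative subunits, up to 3 called genes per related list and DI comparison, and Nfe2l2. Other names were added after their values were seen: further members called in a comparison, members with an unadjusted p under 0.05, core subunits for contrast, and the remaining called genes of the related lists. In the annotation 12 nuclear and 7 mitochondrial members overlap another gene on the same strand, and their reads may be shared.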

Additional observations from a re-analysis of the deposited data

Results flagged for a closer look

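The response to DI differed between wild-type and Nrf2-/- cells, by the test of the difference itself, for 6 members of the chain. The difference, knockout minus wild type on the log2 scale, was 1.91 for Ndufs4, -1.42 for Cox7a2, -1.26 for Cox5a, -1.22 for Cox8a, -1.20 for mt-Co3 and -1.14 for Ndufa8. With the offset for A-rich sequence these values became 1.5, -1.18, -0.91, -0.83, -0.96 and -0.89 in the same order, and the 5 negative ones no longer passed the test. Ndufs4 alone had the call in every alternative run.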

How the results depend on the processing

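Across settings, 202 of the counts, sums and ratios stayed the same, 52 moved and 2 reversed. A count stayed the same within 1.5-fold, and a sum or ratio within the larger replicate SD of its 2 groups. Reversed meant a change of sign in a value larger than that SD, so smaller values could change sign and count as the same. The ratio's change with DI in the knockout, -0.03, was 0.125 without the most abundant members and 0.22 with means of log2 CPM. The numbers of all genes called, higher and lower, moved with the setting too. For DI in wild type these were 721 and 962 (main), 778 and 1043 (DESeq2) and 943 and 1283 (no filter). In the same order they were 497 and 443, 708 and 551, and 1029 and 668 for DI in the knockout. For the interaction they were 549 and 287, 774 and 426, and 1106 and 491. Between the DI groups they were 1266 and 1079, 1365 and 1067, and 1603 and 1260. For DI in wild type, 5 members were higher and 1 lower. DESeq2 gave 9 higher, no filter on low counts gave 10 and 4, total counts only gave 2 lower, and leaving out 1 library gave 0 to 8 and 1 to 2. For DI in the knockout, with 0 called, DESeq2 gave 1 lower, no filter gave 1 higher and 1 lower, and leaving out 1 library gave 0 to 1 and 0 to 2. For the interaction, with 1 higher and 5 lower, DESeq2 gave 13 lower, total counts only 3, no filter 3 and 13, the A-rich sequence offset 2 and 0, and leaving out 1 library 1 to 2 and 0 to 11. For untreated knockout against wild type, no filter gave 2 lower, and leaving out 1 library gave 0 to 1. For knockout DI against wild-type DI, with 1 higher and 21 lower, total counts only gave 3 higher and 14 lower, no filter gave 3 higher, the offset 3 and 13, the compared groups alone 11 lower, and leaving out 1 library 1 to 2 and 3 to 20.

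With total counts only, the nuclear sum changed by 0.043 with DI in wild type (0.13 with TMM), by -0.19 in the knockout (-0.16) and by -0.23 between the DI groups (-0.33), and the complex I nuclear sum reversed between untreated groups, to 0.0101 from -0.0407. Without the 17 members whose libraries differed over 2-fold, chosen after seeing the data, the nuclear change in the knockout was -0.20. Between untreated groups that choice gave 0.23 for the mitochondrial sum (0.07) and 0.24 for the ratio (0.12). That ratio was 0.013 without the most abundant members and reversed to -0.24 with means of log2 CPM. Leaving out 1 library gave -0.170 to -0.145 for the nuclear change in the knockout and, between untreated groups, 0.0129 to 0.136 for the mitochondrial sum and 0.0985 to 0.137 for the ratio. The cause was not tested. The labels give groups the same replicate numbers, but nothing says that they pair libraries, and the correlations of replicate differences ran from -0.08 to 0.16. With a replicate block there were 6 higher and 1 lower for DI in wild type, 0 in the knockout, 1 higher and 7 lower for the interaction, 0 between untreated groups, and 1 higher and 19 lower between the DI groups. The fit on the compared groups alone was not run for the interaction, which uses all 4. With 1 library left in a group, that library was assumed to vary like the others.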
